A study of Mus musculus with 9 samples.

Results

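The genes described here encode the proteasome, its activators and the chaperones that share its gene symbols. They were chosen by name, as protein-coding rows of the count table with a symbol of Psma, Psmb, Psmc, Psmd or Psme followed by a number and a summed count of at least 1000 over the 9 libraries. The rule found 42 of the 20189 rows, and all 42 were among the 20143 genes tested. The lowest summed count among them was 3182, for Psme2b, and the nearest genes below the minimum were Psmb9 with 456 and Psmb8 with 137. Of the 42 genes, 41 encode proteasome subunits, activators or chaperones of their assembly and are called proteasome genes below. Psmc3ip, a cofactor of meiotic recombination named for binding the ATPase Psmc3, is none of these. It is included in the counts and medians of the 42 and left out of the values for the 41.

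E14 is a line of pluripotent mouse ES cells. Wild-type E14 cells grown on gelatin with LIF were deprived of Thr or of Cys for 3 h, or kept in medium with all amino acids (unstarved), and poly(A) RNA of 3 samples per group was sequenced. The study's methods describe starvation media with dialyzed serum, β-mercaptoethanol and LIF. Its RNA methods call the controls only unstarved, so a difference in serum or medium change between the groups cannot be told apart from starvation. The treatment text of the labels names Arg and Leu only, so Thr and Cys starvation are taken from the sample titles. Nothing in the labels says that the 3 samples of a group were separate cultures beyond calling them replicates, so the p-values measure the spread between these samples, which may be technical. All values come from a single line, and in bulk RNA fewer cells with a transcript and less of it per cell cannot be told apart.

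The total count ranged from 48763102 to 74962733 per library, and the common coefficient of variation between replicates was 3.53%. All 8 ES cell markers were abundant, with means from 190 CPM (read counts scaled by TMM to a library of fixed size) to 821 CPM for Zfp42, and their summed level was 3910 to 3930 CPM in unstarved, 4140 to 4220 CPM in Thr-starved and 3730 to 3750 CPM in Cys-starved libraries. Of 6 fibroblast markers 5 were in the table, none of them at 0, with a summed level of 10.1 to 16.8 CPM over all libraries. The neuronal list summed to 154 to 160 CPM in unstarved, 66.4 to 69.1 CPM in Thr-starved and 189 to 193 CPM in Cys-starved libraries, nearly all of it Tubb3. The part of these shifts in the results below was not tested.

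The proteasome degrades proteins that carry ubiquitin. Its 20S core is a barrel of stacked rings in which alpha subunits form the gate and the beta subunits Psmb5, Psmb6 and Psmb7 cut the substrate, and the 19S cap, built from a base with a ring of ATPases and a lid with a deubiquitinase, recognizes, unfolds and feeds it. Other activators, the PA28 proteins and PA200, open the core without ATP, and in immune cells or after interferon the catalytic subunits are exchanged for those of the immunoproteasome. When proteasome activity falls, cells can raise the subunits together through the transcription factor NRF1 (Nfe2l1). ES cells are known for high proteasome activity.

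In unstarved cells the medians of the subunit groups of the standard 26S complex lay between 96.1 and 159 CPM per kb of transcript. Single subunits spread more, from 69.9 for Psma2 to 233 for Psmb6, with testis-specific Psma8 lower. Divided by the length of the principal transcript, the 3 catalytic beta subunits had a median of 129 CPM per kb and a range from 110.9 to 233, the structural beta subunits a median of 159 and the ATPases of the base a median of 133. The alpha ring had a median of 126 CPM per kb, with testis-specific Psma8 the lowest at 6.24, and the lid a median of 96.1. The other groups were lower per length in the median, though Psme3 lay within the range of the 26S subunits. Psmb10 of the immunoproteasome stood at 23.0 CPM per kb, the Psmd-named chaperones at a median of 14.8 and the activators at a median of 34.2, from 7.91 for Psme2b to 94.1 for Psme3. Psmb8 and Psmb9, the other catalytic subunits of the immunoproteasome, had only 14 to 19 and 48 to 58 raw counts per unstarved library. With the length of all merged exons in place of the principal transcript the medians were lower, for instance 55.3 CPM per kb for the alpha ring and 99.3 for the catalytic subunits.

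Proteasome genes moved in both directions in either starvation, with more decreases than increases in each, and the difference in split between the starvations was not tested. The sizes were small. After 3 h without Thr the summed level of the 41 proteasome genes was 6424 ± 54.9 CPM against 6788 ± 45.9 CPM in unstarved cells (SD, n = 3 each), and without Cys it was 6273 ± 70.1 CPM, that is 94.6% and 92.4% of the unstarved level. A gene was taken as changed at an adjusted p of 0.05 or less in edgeR's quasi-likelihood test, with adjustment over all genes tested. In Thr starvation 14 of the 42 rose (33.3%) and 21 fell (50%), beside 39.3% and 39.2% of the 13349 genes with a summed count of at least 1000, and 63% of all genes tested changed in either direction. In Cys starvation 6 rose (14.3%) and 25 fell (59.5%), beside 23.4% and 27.3% of those genes, and 36.3% of all genes tested changed. In the comparison of Thr- with Cys-starved cells 18 were higher with Thr starvation (42.9%) and 12 lower (28.6%), beside 40.5% and 37.6%, and 62% of all genes tested.

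In both starvations the share that fell was above that of the genes with a summed count of at least 1000 and the share that rose was below it, with the wider gap between falls in Cys starvation. The median log2 fold change of the 42 was -0.055 in Thr starvation and -0.10 in Cys starvation, where the genes with a summed count of at least 1000 had -0.0039 and -0.010. The median size of the change, without its sign, was 0.14 in Thr starvation against 0.33 for those genes, and 0.135 for both in Cys starvation. For 36 of the 42 (85.7%) all 3 Thr-starved libraries lay on 1 side of all 3 unstarved ones, beside 80.1% of the genes with a summed count of at least 1000, and the same held for 34 (81.0%) beside 59.9% in Cys starvation. The Thr-starved and Cys-starved libraries did not overlap for 29 (69.0%), beside 79.5%. Thr and Cys starvation were each set against the same 3 unstarved libraries, so their values are given side by side and not as independent results.

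**Figure D1:**
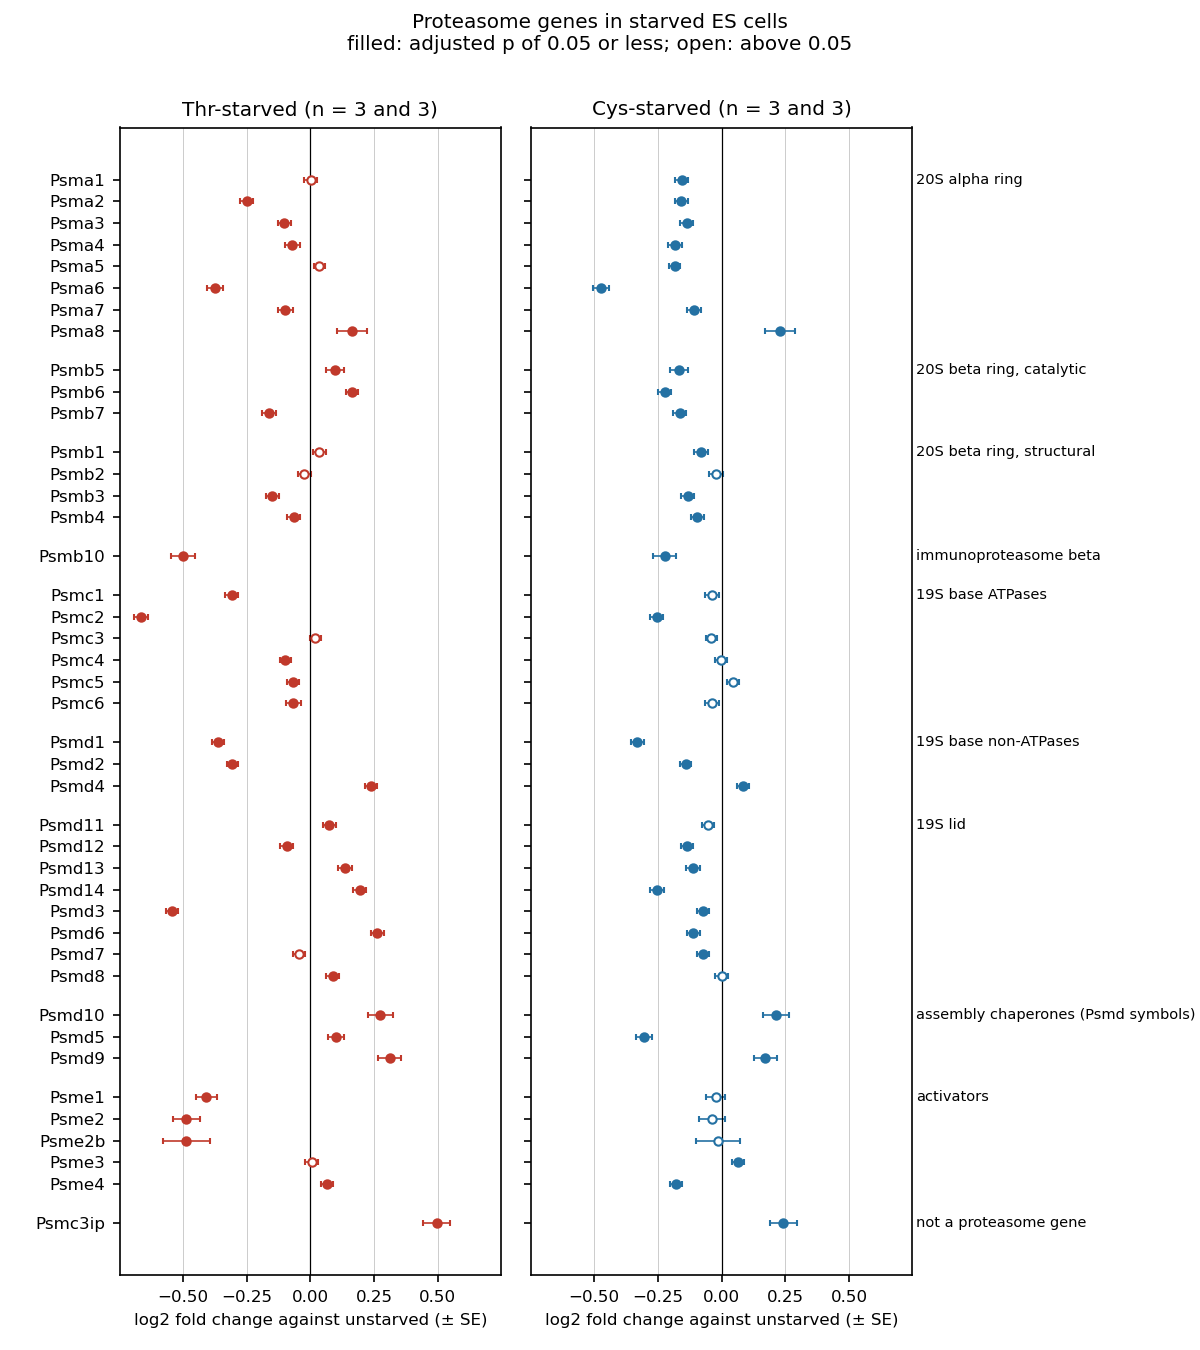
Log2 fold change of each of the 42 genes in Thr-starved (left) and Cys-starved cells (right) against unstarved cells, with the standard error as a bar and 3 libraries in each group, ordered by role. Points lie on both sides of 0 with Thr starvation, from -0.66 for Psmc2 to 0.50 for Psmc3ip, and mostly below 0 with Cys starvation, where Psma6 is lowest at -0.47.

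The alpha ring and the beta ring of the core fell almost throughout in Cys starvation. Of the 14 constitutive core subunits, Psma1 to Psma7 and Psmb1 to Psmb7, 13 fell and only Psmb2 did not pass the test (log2 fold change -0.022, adjusted p = 0.57 from edgeR), while in Thr starvation 8 fell, 2 rose and 4 did not pass, and of the 8 Psma7 turned to an increase once each library's trends with GC content and exon length were removed. The median of these 14 was -0.16 in Cys and -0.068 in Thr starvation. Of the genes with a summed count of at least 1000, 27.3% fell in Cys starvation, and 39.2% fell and 39.3% rose in Thr starvation. The decreases of Psmb1 and Psma7 in Cys starvation were close to the threshold. Without unstarved library 1, Cys-starved library 1 or Cys-starved library 3 Psmb1 had -0.066 (adjusted p = 0.098), -0.077 (0.064) or -0.069 (0.082), and without unstarved library 3 Psma7 had -0.080 (0.054), all from edgeR. The small decreases of 3 genes in Thr starvation were lost in the same way, Psma7 without unstarved library 3 (-0.071), Psma4 without unstarved library 2 (-0.066) or 3 (-0.060) or Thr-starved library 2 (-0.049), and Psmb4 without unstarved library 1 (-0.057) or 2 (-0.055) or Thr-starved library 1 (-0.044) or 2 (-0.050). The Thr calls of Psma4 and Psmb4 were also lost with RLE scaling (-0.064 and -0.058), with filterByExpr (-0.065 and -0.059) and with DESeq2 (-0.064 and -0.058), and that of Psmb4 with the GC content and length trends removed (-0.042).

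Psma6, an alpha ring subunit (ENSMUSG00000021024, chr12:55384222-55418454 of GRCm38), had the largest decrease of the constitutive core in both starvations, though with the GC content and length trends removed Psma2 was lower in Thr starvation (-0.50 against -0.44). Its level was 167.2, 164.5 and 166.0 CPM in the unstarved libraries, 129.8, 124.7 and 129.3 CPM in the Thr-starved and 118.6, 125.5 and 114.2 CPM in the Cys-starved libraries. All starved libraries lay below all unstarved ones, and the Thr- and Cys-starved libraries overlapped. Psma6 fell by 0.37 on the log2 scale with Thr starvation (SE 0.030, edgeR adjusted p = 2.2e-10) and by 0.47 with Cys starvation (SE 0.030, adjusted p = 4.1e-11). Psma2 followed in Thr starvation with -0.25 and was at -0.16 in Cys starvation. Psma8, which replaces Psma7 in the testis, was the exception of the ring at 10.9, 10.5 and 10.3 CPM in unstarved, 11.6, 11.6 and 12.3 CPM in Thr-starved and 12.5, 12.5 and 12.2 CPM in Cys-starved libraries. No starved library of Psma8 overlapped an unstarved one, and its log2 fold change was 0.23 with Cys (SE 0.059, edgeR adjusted p = 0.0036) and 0.16 with Thr starvation (SE 0.060, adjusted p = 0.022), the latter at -0.056 with these trends removed. Without unstarved library 3 or Thr-starved library 3 the Thr value was 0.15 or 0.13 (edgeR adjusted p = 0.065 and 0.11).

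The catalytic subunits changed in different directions. Psmb5, which holds the chymotrypsin-like activity (ENSMUSG00000022193, chr14:54614119-54618022, minus strand), was at 113.3, 119.4 and 115.3 CPM in unstarved, 122.8, 117.0 and 132.2 CPM in Thr-starved and 103.4, 104.9 and 101.4 CPM in Cys-starved libraries. The Cys-starved libraries were below all others, and the Thr-starved ones overlapped the unstarved ones. Psmb5 had a log2 fold change of 0.098 with Thr (SE 0.035, edgeR adjusted p = 0.019) and of -0.17 with Cys starvation (SE 0.035, adjusted p = 0.00054). The Thr value did not pass without unstarved library 1 (0.085, adjusted p = 0.076), without unstarved library 3 (0.094, 0.054) or without Thr-starved library 3 (0.047, 0.21) in edgeR, and was 0.29 with the GC content and length trends removed. Psmb5 also has a near-identical copy, Gm3375, with 98.9% identity over 796 bases.

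Psmb6, the caspase-like subunit (ENSMUSG00000018286, chr11:70525367-70527858), was at 183.2, 186.1 and 188.4 CPM in unstarved, 208.1, 205.6 and 210.4 CPM in Thr-starved and 156.1, 162.3 and 159.2 CPM in Cys-starved libraries. The groups were fully apart, Thr-starved above unstarved and Cys-starved below. Psmb6 rose by 0.16 on the log2 scale with Thr (SE 0.024, edgeR adjusted p = 3e-06) and fell by 0.22 with Cys starvation (SE 0.024, adjusted p = 1.4e-07), and over all 18 alternative settings the Thr value stayed between 0.15 and 0.17. Psmb7, the trypsin-like subunit (ENSMUSG00000026750, chr2:38588036-38644087), was at 127.8, 130.5 and 127.7 CPM in unstarved, 115.4, 112.8 and 116.8 CPM in Thr-starved and 116.7, 115.0 and 112.7 CPM in Cys-starved libraries. It fell by 0.16 in each starvation (SE 0.026 each, edgeR adjusted p = 1.1e-05 and 2.6e-05), and the Thr- and Cys-starved libraries overlapped. With the GC content and length trends removed it was at -0.39 with Thr and -0.21 with Cys starvation. The structural beta subunits moved less, from -0.15 (Psmb3) to 0.035 (Psmb1) with Thr and from -0.13 (Psmb3) to -0.022 (Psmb2) with Cys starvation.

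Psmb10 takes the place of Psmb7 in the immunoproteasome (ENSMUSG00000031897, chr8:105935735-105938444). It was at 30.6, 30.6 and 29.1 CPM in unstarved, 21.2, 20.9 and 21.9 CPM in Thr-starved and 26.7, 24.4 and 26.3 CPM in Cys-starved libraries. The groups did not overlap, with the Thr-starved libraries lowest, and Psmb10 fell by 0.50 on the log2 scale with Thr (SE 0.046, edgeR adjusted p = 2.2e-09) and by 0.22 with Cys starvation (SE 0.045, adjusted p = 0.00037). Of its partners below the count minimum, Psmb8 had 7, 7 and 14 counts in the Thr-starved and 24, 20 and 17 in the Cys-starved libraries and Psmb9 had 36, 30 and 61 and 62, 60 and 43. Psmb8 was lower in Thr-starved than in Cys-starved cells (-0.99, SE 0.40, edgeR adjusted p = 0.035), with no overlap of the libraries. Neither gene passed the test against unstarved cells, with 95% intervals of the Thr log2 fold change from -1.55 to 0.058 for Psmb8 and from -0.79 to 0.099 for Psmb9.

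In the ATPase ring of the base 5 of 6 subunits fell in Thr starvation, beside 39.2% of the genes with a summed count of at least 1000, with the calls of Psmc5 and Psmc6 lost in several settings given below, and in Cys starvation only Psmc2 fell while the other 5 did not pass the test, though with the deposited size factors Psmc1 (-0.080), Psmc3 (-0.082) and Psmc6 (-0.081) passed as lower too. Psmc2 (ENSMUSG00000028932, chr5:21785283-21803787) had the largest decrease of all 42 genes in Thr starvation. Its level was 166.7, 170.4 and 168.5 CPM in unstarved, 103.4, 107.6 and 107.8 CPM in Thr-starved and 144.4, 140.8 and 138.6 CPM in Cys-starved libraries. The groups were fully apart in that order. Psmc2 fell by 0.66 on the log2 scale with Thr (SE 0.027, edgeR adjusted p = 8e-16) and by 0.25 with Cys starvation (SE 0.026, adjusted p = 6.6e-08). Psmc1 followed with -0.31 in Thr starvation and -0.038 in Cys starvation (edgeR adjusted p = 6.4e-10 and 0.29), and near-identical copies of it exist. The other 4 ATPases lay between -0.098 (Psmc4) and 0.020 (Psmc3) with Thr starvation. Among these small values Psmc6 (-0.066) lost its call without any single Thr-starved library, unstarved library 1 or 2, or Cys-starved library 2, at -0.072 to -0.046, and Psmc5 (-0.067) without unstarved library 2 or Thr-starved library 2, at -0.052 and -0.060. Psmc6 also lost its call with RLE scaling, the deposited size factors, filterByExpr and DESeq2, at -0.064 to -0.060. With the GC content and length trends removed Psmc6 was at -0.36 in Thr and -0.13 in Cys starvation, both of which passed, Psmc5 at -0.029 in Thr (not passing) and 0.089 in Cys starvation (passing), and Psmc3 at 0.11 in Thr starvation (passing).

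The scaffold subunits of the base, Psmd1 and Psmd2, fell in both starvations, and the ubiquitin receptor Psmd4 rose in both. Psmd1 (ENSMUSG00000026229, chr1:86064387-86139151) was at 289.3, 287.5 and 284.4 CPM in unstarved, 222.9, 222.9 and 223.8 CPM in Thr-starved and 235.2, 229.9 and 219.6 CPM in Cys-starved libraries. All starved libraries were below the unstarved ones, and Psmd1 fell by 0.36 with Thr and 0.33 with Cys starvation on the log2 scale (SE 0.025 each, edgeR adjusted p = 1.1e-11 and 4.8e-10). Psmd2 had -0.31 with Thr and -0.14 with Cys starvation. Psmd4 had 0.24 and 0.085 (edgeR adjusted p = 5.9e-09 and 0.0059), and its Cys value did not pass when the deposited size factors took the place of TMM (0.043, edgeR adjusted p = 0.17). Summed over the 6 ATPases the level was 1095 ± 3.82 CPM in Thr-starved and 1188 ± 14.7 CPM in Cys-starved cells, and over these 3 it was 853 ± 3.80 and 890 ± 14.6 CPM (SD, n = 3 each). The difference of the sums was not tested, and single genes went against it, with Psmd4 (0.15) and Psmc3 (0.060) higher in Thr-starved than in Cys-starved cells.

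The lid was split in Thr starvation. Psmd6, Psmd8, Psmd11, Psmd13 and Psmd14 rose, of which Psmd11 and Psmd14 turned below 0 with the GC content and length trends removed, Psmd3 and Psmd12 fell and Psmd7 did not pass the test, while in Cys starvation 6 of the 8 fell and none rose. Of the genes with a summed count of at least 1000, 39.3% rose and 39.2% fell with Thr starvation and 23.4% and 27.3% with Cys starvation. With the trends removed Psmd7 passed as lower with Thr starvation (-0.11) and Psmd11 as lower with Cys starvation (-0.12). The summed level of the lid was 1473 CPM in both unstarved (SD 20) and Thr-starved cells (SD 9.41, n = 3 each) and 1377 ± 15.8 CPM in Cys-starved cells. Psmd3 (ENSMUSG00000017221, chr11:98682554-98695979), a structural lid subunit, was at 200.3, 208.5 and 206.3 CPM in unstarved, 140.0, 143.0 and 139.6 CPM in Thr-starved and 194.1, 195.3 and 195.5 CPM in Cys-starved libraries. The Thr-starved libraries were far below both other groups, and Psmd3 fell by 0.54 on the log2 scale with Thr (SE 0.024, edgeR adjusted p = 5.5e-15) and by 0.072 with Cys starvation (SE 0.024, adjusted p = 0.019). The small Cys value did not pass without unstarved library 2 (-0.061), unstarved library 3 (-0.068) or Cys-starved library 1 (-0.069).

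Psmd14 is the deubiquitinase of the lid (ENSMUSG00000026914, chr2:61711694-61800376). It was at 161.3, 162.9 and 157.1 CPM in unstarved, 183.3, 177.4 and 189.2 CPM in Thr-starved and 133.3, 136.5 and 134.2 CPM in Cys-starved libraries, with no overlap between any pair of groups. Psmd14 had a log2 fold change of 0.19 with Thr (SE 0.027, edgeR adjusted p = 1.3e-06), which went to -0.0041 with the GC content and length trends removed, and fell by 0.25 with Cys starvation (SE 0.027, adjusted p = 1.2e-07). Psmd6 (ENSMUSG00000021737, chr14:14112174-14120984) was at 127.0, 128.2 and 126.6 CPM in unstarved, 152.2, 153.0 and 152.8 CPM in Thr-starved and 118.3, 120.9 and 114.3 CPM in Cys-starved libraries. Its groups were apart in the same way, and it rose by 0.26 with Thr (SE 0.026, edgeR adjusted p = 6.2e-09) and fell by 0.11 with Cys starvation (SE 0.026, adjusted p = 0.0016), in all 18 alternative settings. Psmd13, another structural lid subunit, had 0.14 with Thr and -0.11 with Cys starvation (edgeR adjusted p = 0.00014 and 0.0022), also in all 18. Psmd11 had 0.075 with Thr starvation (edgeR adjusted p = 0.011) and turned to -0.16 with the trends removed, and without unstarved library 1 it was 0.059 (adjusted p = 0.064). Psmd7 in Cys starvation was at -0.074 and without Cys-starved library 1 at -0.055 (edgeR adjusted p = 0.097).

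Psmd5, Psmd9 and Psmd10 are chaperones that help to assemble the base and are not part of the finished particle. All 3 passed as higher in Thr starvation, but Psmd5 and Psmd10 did not with the GC content and length trends removed. In Cys starvation Psmd9 and Psmd10 rose and Psmd5 fell. Of the genes with a summed count of at least 1000, 39.3% rose with Thr starvation, and 23.4% rose and 27.3% fell with Cys starvation. Psmd9 (ENSMUSG00000029440, chr5:123169413-123250131) was at 25.4, 26.8 and 25.2 CPM in unstarved, 33.2, 30.9 and 31.9 CPM in Thr-starved and 30.1, 27.4 and 29.7 CPM in Cys-starved libraries. Both starved groups lay above the unstarved one, with log2 fold changes of 0.31 (SE 0.046, edgeR adjusted p = 3.6e-06) and 0.17 (SE 0.046, adjusted p = 0.0052), and 1849 exon bases of Psmd9 are shared with Gm26745 on the opposite strand. Psmd10, known as gankyrin (ENSMUSG00000031429, chrX:140948429-140956728), was at 21.6, 20.7 and 21.1 CPM in unstarved, 23.9, 25.9 and 26.7 CPM in Thr-starved and 25.2, 24.9 and 23.3 CPM in Cys-starved libraries. All of its starved libraries were above the unstarved ones, with 0.27 (SE 0.050, edgeR adjusted p = 4.6e-05) and 0.21 (SE 0.050, adjusted p = 0.0015), and the Thr value was 0.042 with the GC content and length trends removed. Psmd5 (ENSMUSG00000026869, chr2:34849734-34874968) was at 92.6, 95.5 and 90.8 CPM in unstarved, 100.8, 97.1 and 101.3 CPM in Thr-starved and 77.1, 76.8 and 71.9 CPM in Cys-starved libraries. The Cys-starved libraries were lowest. Psmd5 fell by 0.31 with Cys starvation (SE 0.032, edgeR adjusted p = 9.5e-08) and had 0.10 with Thr starvation (SE 0.032, adjusted p = 0.0079), which went to 0.0041 with the trends removed.

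The PA28 alpha and beta subunits fell in Thr starvation and did not pass the test in Cys starvation. Psme1 (PA28 alpha, ENSMUSG00000022216, chr14:55578123-55581529) was at 38.9, 37.2 and 37.9 CPM in unstarved, 29.9, 27.7 and 28.4 CPM in Thr-starved and 37.8, 37.1 and 37.2 CPM in Cys-starved libraries. Psme2 (PA28 beta, ENSMUSG00000079197, chr14:55587441-55591113) was at 24.2, 23.6 and 23.2 CPM in unstarved, 18.3, 16.3 and 16.3 CPM in Thr-starved and 23.0, 22.2 and 24.1 CPM in Cys-starved libraries. For both genes, which lie on chromosome 14 with 5911 bases between them, the Thr-starved libraries were below all others and the Cys-starved ones overlapped the unstarved ones. Psme1 fell by 0.41 on the log2 scale (SE 0.040, edgeR adjusted p = 4.8e-09) and Psme2 by 0.49 (SE 0.052, adjusted p = 2.7e-08) with Thr starvation. With Cys starvation the 95% intervals of the log2 fold change were -0.099 to 0.051 for Psme1 and -0.14 to 0.060 for Psme2.

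Psme2b is a copy of Psme2 with a single exon on another chromosome (ENSMUSG00000078153, chr11:48945354-48946190), with 99.4% identity to Psme2 over 794 bases. It was at 7.05, 6.35 and 6.46 CPM in unstarved, 5.10, 4.93 and 4.25 CPM in Thr-starved and 7.02, 6.20 and 6.44 CPM in Cys-starved libraries, and fell by 0.49 with Thr starvation (SE 0.092, edgeR adjusted p = 6.9e-05). How reads of the shared stretch were assigned was not tested, so the values of Psme2b and Psme2 may not be independent of each other. Psme3, the nuclear PA28 gamma (ENSMUSG00000078652, chr11:101316213-101323537), was at 253.9, 254.4 and 243.3 CPM in unstarved, 251.8, 256.2 and 246.3 CPM in Thr-starved and 263.1, 261.1 and 262.5 CPM in Cys-starved libraries. Its Thr-starved libraries overlapped the unstarved ones, with a log2 fold change of 0.0046 and a 95% interval from -0.042 to 0.051. Its Cys-starved libraries were above them by 0.066 (edgeR adjusted p = 0.034). That call was lost without unstarved library 3 (0.045), Thr-starved library 1 (0.063) or Cys-starved library 1 (0.063), 2 (0.069) or 3 (0.065), and with the deposited size factors (0.024, edgeR adjusted p = 0.48).

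Psme4, which encodes PA200 (ENSMUSG00000040850, chr11:30771726-30880361), was at 292.4, 293.2 and 288.2 CPM in unstarved, 303.8, 314.7 and 296.7 CPM in Thr-starved and 255.5, 255.4 and 260.1 CPM in Cys-starved libraries. The Cys-starved libraries were below all others, and Psme4 fell by 0.18 on the log2 scale with Cys starvation (SE 0.024, edgeR adjusted p = 2.2e-06). Its Thr value of 0.067 (SE 0.024, adjusted p = 0.018) turned to -0.073 with the GC content and length trends removed and did not pass without unstarved library 3 (0.059, edgeR adjusted p = 0.071) or Thr-starved library 2 (0.044, 0.13). Psmc3ip, the gene outside the proteasome, was at 16.9, 16.6 and 16.6 CPM in unstarved, 24.9, 21.5 and 24.2 CPM in Thr-starved and 19.4, 19.7 and 20.2 CPM in Cys-starved libraries, the largest increase of the 42 in both starvations at 0.50 and 0.24 on the log2 scale. Without Psmc3ip the proteasome genes had 13 increases and 21 decreases with Thr starvation and 5 and 25 with Cys starvation. The median log2 fold change of these 41 was -0.065 and -0.11. Of the genes with a summed count of at least 1000, 39.3% rose and 39.2% fell with Thr starvation and 23.4% and 27.3% with Cys starvation.

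**Figure D2:**
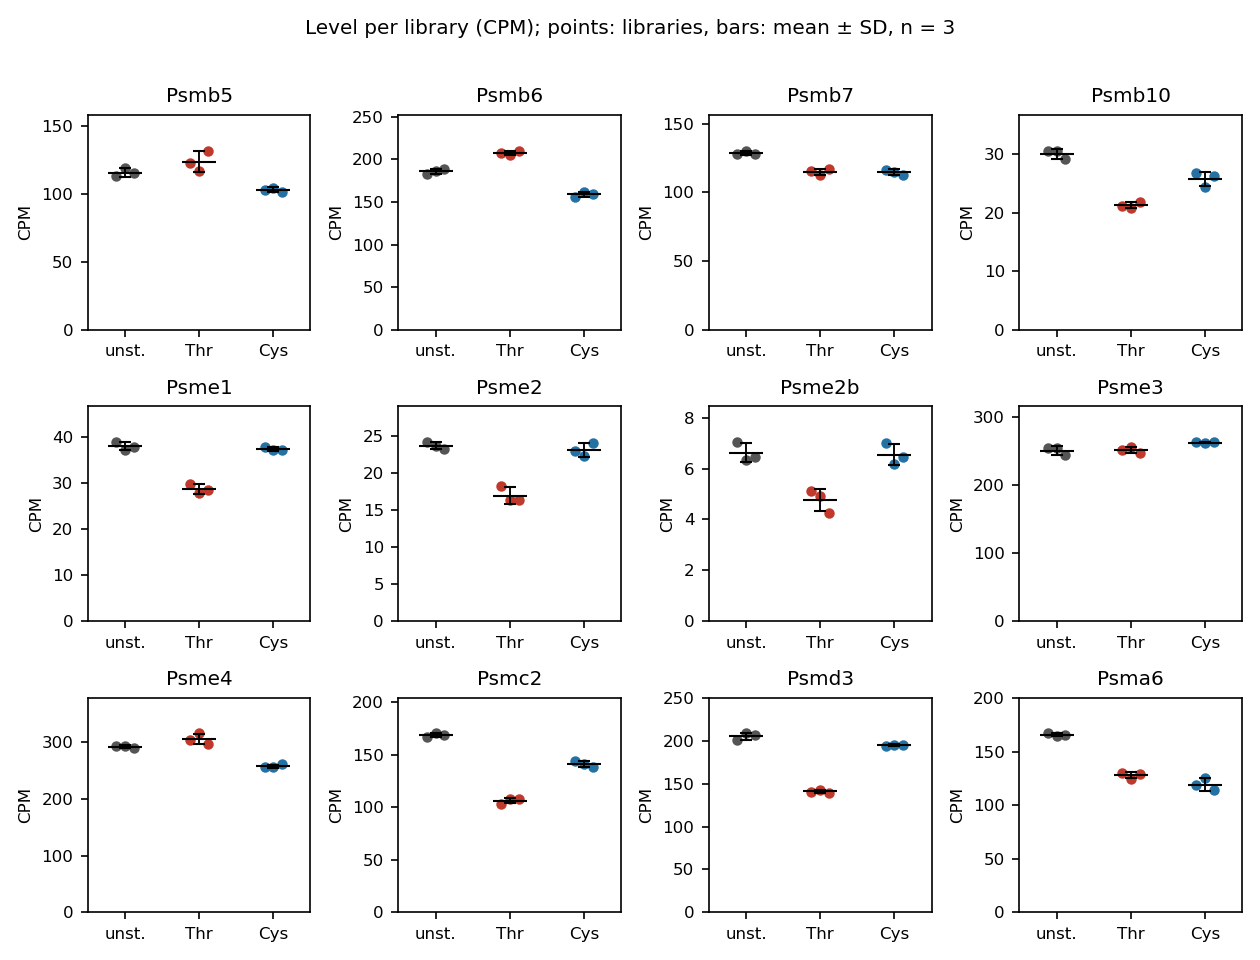
CPM of each library for 12 genes, as points, with the mean and SD of 3 libraries as black bars and an axis that starts at 0 in every panel. Psme1, Psme2 and Psme2b are lower in the Thr-starved libraries only, Psmb5, Psmb6 and Psme4 are lowest in the Cys-starved libraries, and Psmc2 falls from 168 CPM in unstarved to 106 CPM in Thr-starved cells.

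When Thr- and Cys-starved cells were set directly against each other, the 4 lowest log2 fold changes were those of Psme2b, Psmd3, Psme2 and Psmc2 and the 4 highest those of Psmd14, Psmd5, Psmb6 and Psmd6. The log2 fold change of Thr- against Cys-starved cells was -0.47 for Psme2b (SE 0.091), -0.47 for Psmd3 (SE 0.024), -0.45 for Psme2 (SE 0.052) and -0.41 for Psmc2 (SE 0.027). At the other end it was 0.45 for Psmd14 (SE 0.027), 0.41 for Psmd5 (SE 0.032), 0.39 for Psmb6 (SE 0.024) and 0.37 for Psmd6 (SE 0.026). The edgeR adjusted p of these 8 genes was between 8.9e-14 and 9.7e-05, and the libraries of the groups did not overlap. With the GC content and length trends removed the order changed, with Psmd14 at 0.26 and Psmd3 at -0.29, both of which passed, and Psmb5 the highest at 0.39. Of the 42 genes 7 (16.7%) passed in all 3 comparisons with opposite signs in the starvations, beside 10.9% of the genes with a summed count of at least 1000. All 5 activators differed, 4 of them lower and Psme4 higher with Thr starvation, beside 37.6% of the genes with a summed count of at least 1000 lower and 40.5% higher. The call of Psme3 (-0.061) was lost without unstarved library 1, either of Thr-starved libraries 1 and 3, or any single Cys-starved library, at -0.064 to -0.046, with RLE scaling (-0.050), DESeq2 (-0.050) and filterByExpr (-0.053), and with the deposited size factors (-0.017). Of the 8 alpha subunits 4 were higher and 1 lower with Thr starvation, of the 6 ATPases 1 higher and 4 lower, and of the 8 lid subunits 5 higher and 1 lower. With groups this small, nothing particular to a ring is read from these counts beside the shares over all genes. No difference was detected for Psmb7 (log2 fold change 0.0027, 95% interval -0.049 to 0.054), Psmb2 (-0.054 to 0.052) and Psmd1 (-0.080 to 0.017), but with the GC content and length trends removed Psmb7 (-0.18) and Psmd1 (-0.069) passed as lower with Thr starvation, and Psmd1 also without Cys-starved library 3 (-0.059). Psma1, Psma4 and Psma6, 3 of the 4 alpha subunits higher with Thr starvation, did not pass with the trends removed (0.0011, -0.052 and -0.029). Without Cys-starved library 1 Psmc3 was 0.049 (0.060 with it), without Cys-starved library 3 Psma6 was 0.068 (0.099 with it) and without Cys-starved library 2 Psmd9 was 0.098 (0.14 with it), none of which passed the test.

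**Figure D3:**
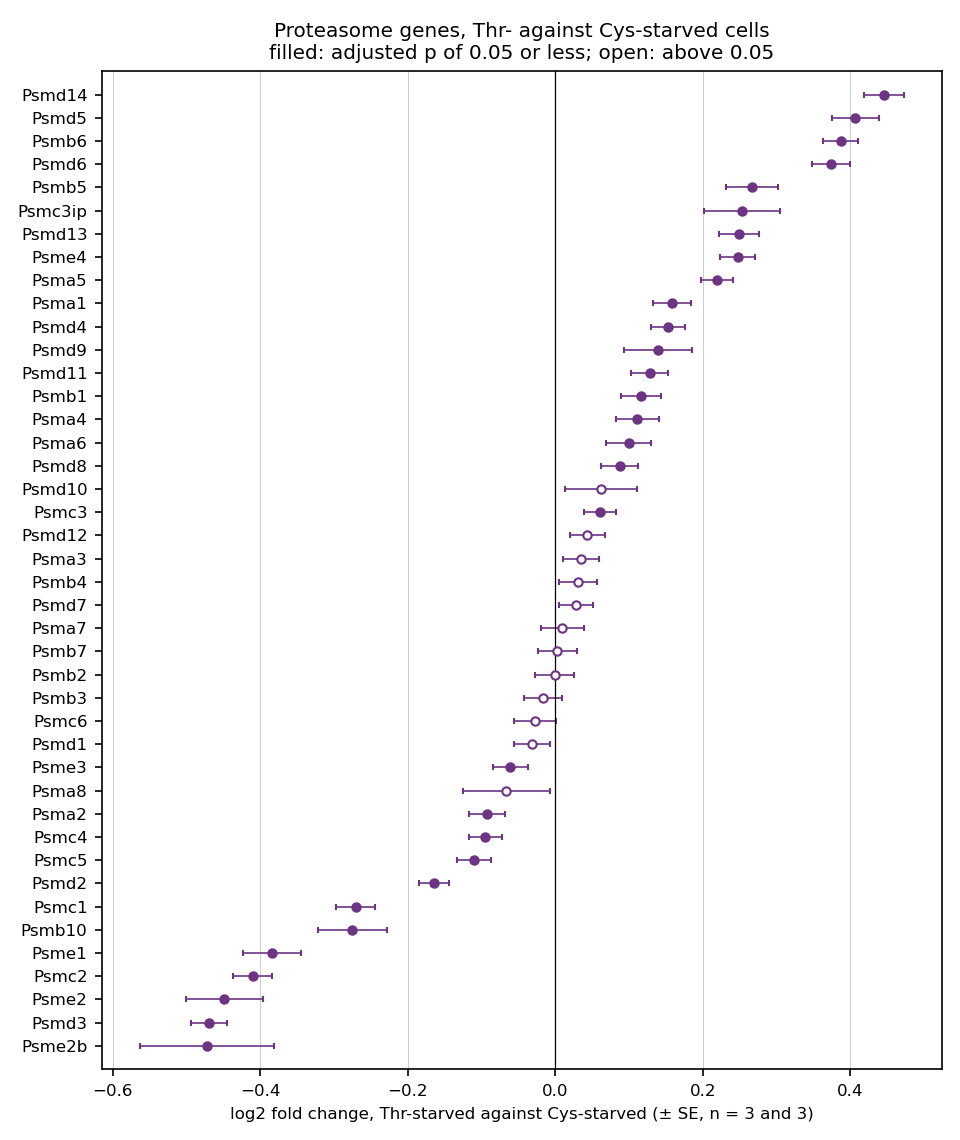
Log2 fold change of Thr-starved against Cys-starved cells for the 42 genes, in order of size, with the standard error as a bar and 3 libraries in each group. The values run from -0.47 (Psme2b) to 0.45 (Psmd14), with 12 filled points below and 18 above 0.

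Many values depended on whether trends with the GC content and length of the transcripts were removed. Across the genes with a summed count of at least 1000, the log2 fold change in Thr starvation went down with the GC content of the transcript (Spearman's rho -0.30 across 13342 genes, which share libraries and are not replicates). Across the 42 genes rho was -0.063 in Thr and 0.26 in Cys starvation, and 0.36 and 0.41 with the offsets described next, with a GC content from 37.0% (Psmc6) to 57.4% (Psma7). When the trends with GC content and exon length were removed per library by offsets in edgeR, 10 of the 42 were higher and 22 lower with Thr starvation and 7 higher and 27 lower with Cys starvation. The share of all genes that passed with these offsets is not given here, so the counts of this fit are not set against it. The sign of the Thr value turned for 6 of the genes that passed the test in either fit, namely Psma1, Psma7, Psma8, Psmd11, Psmd14 and Psme4, of which Psma7, Psmd11 and Psme4 passed in both fits with opposite signs. In Cys starvation no such gene turned. In the direct comparison 15 were then higher and 19 lower, against 18 and 12 without the offsets, so the split of that comparison depended on this choice. It also moved with the deposited size factors, to 22 higher and 9 lower, where Psma2 (-0.048) and Psmc4 (-0.051) did not pass. The median of the genes with a summed count of at least 1000 moved with these factors too, from 0.0214 to 0.0658. The median of the 42 minus that median was 0.0113 with TMM and 0.0112 with these factors. The share of all genes that passed with these factors is not given here. With the offsets Psmc2 was still the lowest in Thr starvation at -0.87. Psme2 (-0.45), Psmd3 (-0.38) and Psme1 (-0.29) passed as lower, but Psma2 (-0.50), Psma6 (-0.44), Psmd1 (-0.41) and Psmb7 (-0.39) were then lower than Psmd3.

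**Figure D4:**
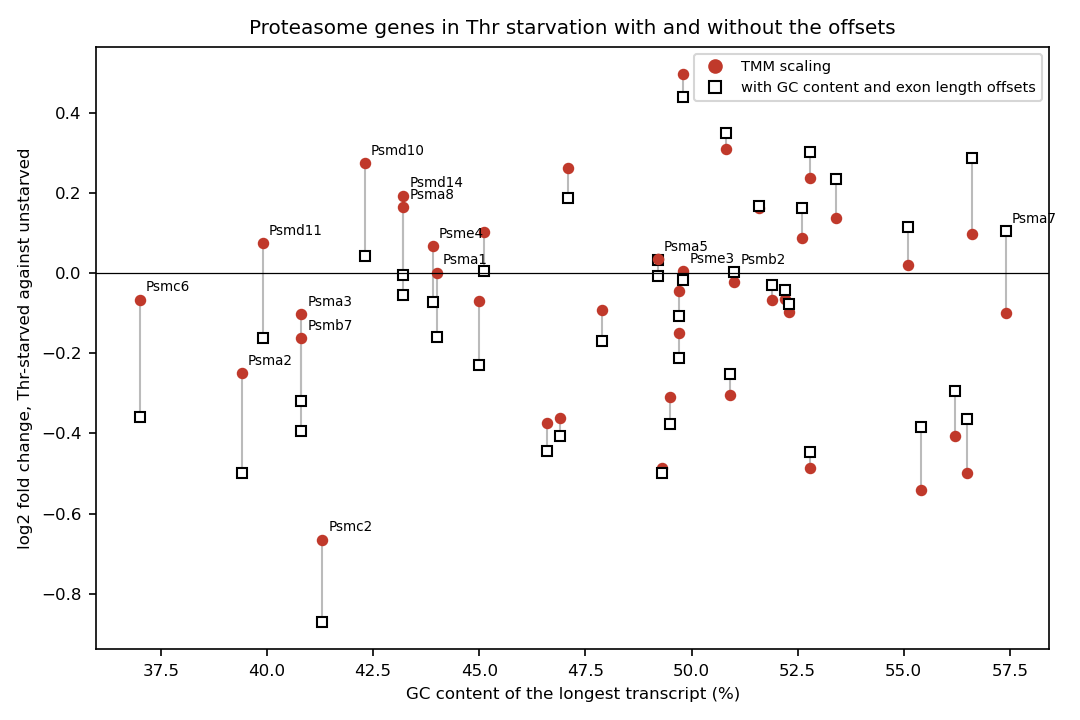
Log2 fold change in Thr starvation against the GC content of the longest transcript for the 42 genes, with TMM scaling (red) and with GC content and exon length offsets (open squares), joined by a line per gene. Genes of low GC content moved down, such as Psmc2 from -0.66 to -0.87 and Psmd14 from 0.19 to -0.0041, and Psma7 and Psmb5 at the other end moved up.

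Promoter windows from RefSeq on GRCm38.p6, from 250 bases before to 50 after the start, were found for 35 of the 42 genes and searched on both strands for 4 motifs. For each of these genes only the window nearest the gene start in GENCODE was used. The 32851 windows set beside them were not reduced in this way, so the shares are not of like units. TGACNNNGC, the core of the antioxidant response element that NRF1 and NRF2 bind, was in 6 windows (Psmb5, Psmb6, Psmc6, Psmd12, Psmd9 and Psme4), or 17.1%, beside 12.4% of all 32851 windows. CCAAT, bound by NF-Y, was in 13 (37.1%) beside 37.4%, TGATGNAA of the C/EBP-ATF element was in Psmd13 (2.86%) beside 3.97%, and GAANNTTC of the heat shock element was in Psmb5 (2.86%) beside 7.86%. Of the 6 genes with TGACNNNGC, 4 rose and 2 fell in Thr starvation, and 1 rose and 4 fell in Cys starvation. Of the 13 with CCAAT, 4 rose and 7 fell in Thr and 4 rose and 8 fell in Cys starvation. The shares of the genes with a summed count of at least 1000 were 39.3% and 39.2% with Thr and 23.4% and 27.3% with Cys starvation. Each share rests on few windows, and a match of letters is not a binding site.

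The 250 bases before the start are printed for Psmb5, Psmb6, Psmd13, Psmc2, Psme1 and Psme2 as examples. Psmb5, Psmb6 and Psmd13 held a match and were higher in Thr-starved than in Cys-starved cells. Other genes with a match were higher too and are not printed, such as Psmd14 (0.45 on the log2 scale) and Psme4 (0.25). Psmc2 had the largest decrease in Thr starvation, and the neighbours Psme1 and Psme2 fell alike in it. Matches to the 4 motifs on either strand are in capitals. The windows are chr14:54617996-54618245 (Psmb5, minus strand), chr11:70525107-70525356 (Psmb6, plus), chr7:140882144-140882393 (Psmd13, plus), chr5:21785025-21785274 (Psmc2, plus), chr14:55578244-55578493 (Psme1, plus) and chr14:55591102-55591351 (Psme2, minus), and the starts of Psmd13 and Psme1 lie 426 and 371 bases from the outermost start in GENCODE.
Psmb5: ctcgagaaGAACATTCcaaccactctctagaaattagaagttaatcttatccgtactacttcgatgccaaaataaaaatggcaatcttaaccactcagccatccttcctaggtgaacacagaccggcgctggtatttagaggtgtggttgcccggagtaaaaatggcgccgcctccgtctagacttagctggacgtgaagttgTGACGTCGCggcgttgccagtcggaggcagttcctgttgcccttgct
Psmb6: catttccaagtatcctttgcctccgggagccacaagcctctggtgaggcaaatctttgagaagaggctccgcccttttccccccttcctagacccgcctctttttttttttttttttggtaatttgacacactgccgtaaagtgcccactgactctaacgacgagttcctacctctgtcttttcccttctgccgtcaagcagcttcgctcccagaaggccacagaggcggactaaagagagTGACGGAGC
Psmd13: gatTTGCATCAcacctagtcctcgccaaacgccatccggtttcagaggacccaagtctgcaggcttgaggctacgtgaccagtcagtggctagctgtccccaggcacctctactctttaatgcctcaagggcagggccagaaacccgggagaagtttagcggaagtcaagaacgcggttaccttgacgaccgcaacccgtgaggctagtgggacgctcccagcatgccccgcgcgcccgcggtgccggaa
Psmc2: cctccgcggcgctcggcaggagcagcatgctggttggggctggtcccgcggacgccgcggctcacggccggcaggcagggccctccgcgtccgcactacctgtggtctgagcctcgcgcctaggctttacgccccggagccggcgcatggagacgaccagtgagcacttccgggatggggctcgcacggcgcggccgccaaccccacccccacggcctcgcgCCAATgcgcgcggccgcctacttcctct
Psme1: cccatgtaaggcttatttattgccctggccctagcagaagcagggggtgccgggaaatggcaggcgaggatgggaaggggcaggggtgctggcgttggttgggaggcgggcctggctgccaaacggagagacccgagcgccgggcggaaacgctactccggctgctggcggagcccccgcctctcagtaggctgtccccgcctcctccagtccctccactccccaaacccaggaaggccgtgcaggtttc
Psme2: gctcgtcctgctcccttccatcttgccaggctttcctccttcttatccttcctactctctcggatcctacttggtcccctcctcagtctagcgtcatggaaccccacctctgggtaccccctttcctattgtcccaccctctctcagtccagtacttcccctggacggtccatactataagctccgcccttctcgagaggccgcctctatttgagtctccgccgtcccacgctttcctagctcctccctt

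In Psmb5 the capitals are GAACATTC, which reads the same way on both strands in the searched letters, and TGACGTCGC, in Psmb6 TGACGGAGC right before the start, in Psmd13 TTGCATCA, which reads TGATGCAA on the other strand, and in Psmc2 a CCAAT. Apart from GAACATTC, which matched on both strands, none of the matches overlapped another in these windows. The windows of Psme1 and Psme2 held none of the 4 motifs in these 250 bases. Their GC content was 66.8% and 57.2%.

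The genes that assemble, regulate or feed the proteasome were given by 47 names outside the rule. In Thr starvation 19 of the 47 rose and 19 fell (40.4% each, beside 39.3% and 39.2% of the genes with a summed count of at least 1000), and in Cys starvation 9 rose and 15 fell (19.1% and 31.9%, beside 23.4% and 27.3%), with median log2 fold changes of -0.0057 and -0.043. In the pathway of transcription factors 7 of 10 rose and 2 fell in Thr starvation and 2 rose and 3 fell in Cys starvation, with the Thr call of Nfyb lost when the GC content and length trends were removed (0.045). Nfe2l1, which encodes NRF1, was at 208 CPM in unstarved, 315 CPM in Thr-starved and 277 CPM in Cys-starved cells on average, log2 fold changes of 0.60 (SE 0.025, edgeR adjusted p = 2.3e-15) and 0.41 (SE 0.025, adjusted p = 2.3e-11). Nfe2l2, which encodes NRF2, had 1.02 and 0.21, its partner Maff 1.09 and 0.10, and Ngly1, the glycanase that processes NRF1, 0.64 and 0.085, of which the Cys values of Maff and Ngly1 did not pass the test. Ddi2, the protease that cuts NRF1, was at -0.078 and -0.17, and without unstarved library 2 or Thr-starved library 1 or 2 its Thr value did not pass (-0.042, -0.078 and -0.064), nor with RLE scaling, filterByExpr or DESeq2. Nfya, the DNA-binding subunit of NF-Y, fell by 0.76 with Thr and 0.15 with Cys starvation.

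Beside the members, Psmf1, the core inhibitor PI31, rose in both starvations, by 0.59 and 0.56 on the log2 scale (SE 0.040 and 0.039, edgeR adjusted p = 8.1e-12 and 1.8e-10). Of the 5 factors that assemble the core, Psmg1, Psmg2, Psmg4 and Pomp fell in both and Psmg3 rose with Thr starvation by 0.43, though the Cys value of Psmg4 (-0.17) did not pass with the GC content and length trends removed (-0.074) or without unstarved library 3 (-0.14) or Cys-starved library 1 (-0.18) or 2 (-0.15), its Thr value (-0.14) was 0.0056 with the trends removed and was lost without any single library other than Thr-starved library 3, at -0.16 to -0.11, and that of Psmg2 (-0.16) was lost without Thr-starved library 1 (-0.12). The Thr call of Psmg4 was also lost with RLE scaling, the deposited size factors, filterByExpr, DESeq2 and only the groups compared, at -0.139 to -0.135. Of the genes with a summed count of at least 1000, 39.2% fell with Thr and 27.3% with Cys starvation. Akirin2, which brings proteasomes into the nucleus, rose by 0.84 and 0.14, and Uchl5, a deubiquitinase of the cap, by 0.46 with Thr starvation and was at -0.013 with Cys starvation. The 19S subunit Adrm1 had -0.17 and 0.098, of which the Thr value did not pass with the trends removed (-0.012) nor the Cys value with the deposited size factors (0.057). Ubb, a gene of several joined ubiquitin units, was at 2882 CPM in unstarved, 2247 CPM in Thr-starved and 2673 CPM in Cys-starved cells and fell by 0.36 and 0.11. Among 8 genes of antigen presentation 4 fell and 1 rose in Thr starvation. The shares of the genes with a summed count of at least 1000 were 39.2% and 39.3%. Tapbp (-0.72), the interferon factor Irf1 (-0.73), H2-K1 (-0.22) and B2m (-0.20) fell beside Psmb10, Psme1 and Psme2, while the class I gene H2-D1 (0.59) rose. Tap1 (0.10), Tap2 (-0.89, SE 0.41) and Nlrc5 (-0.27) did not pass the test. The call of H2-K1 was lost with the trends removed (-0.12), that of B2m with DESeq2 (-0.20), and both without some single libraries.

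**Figure D5:**
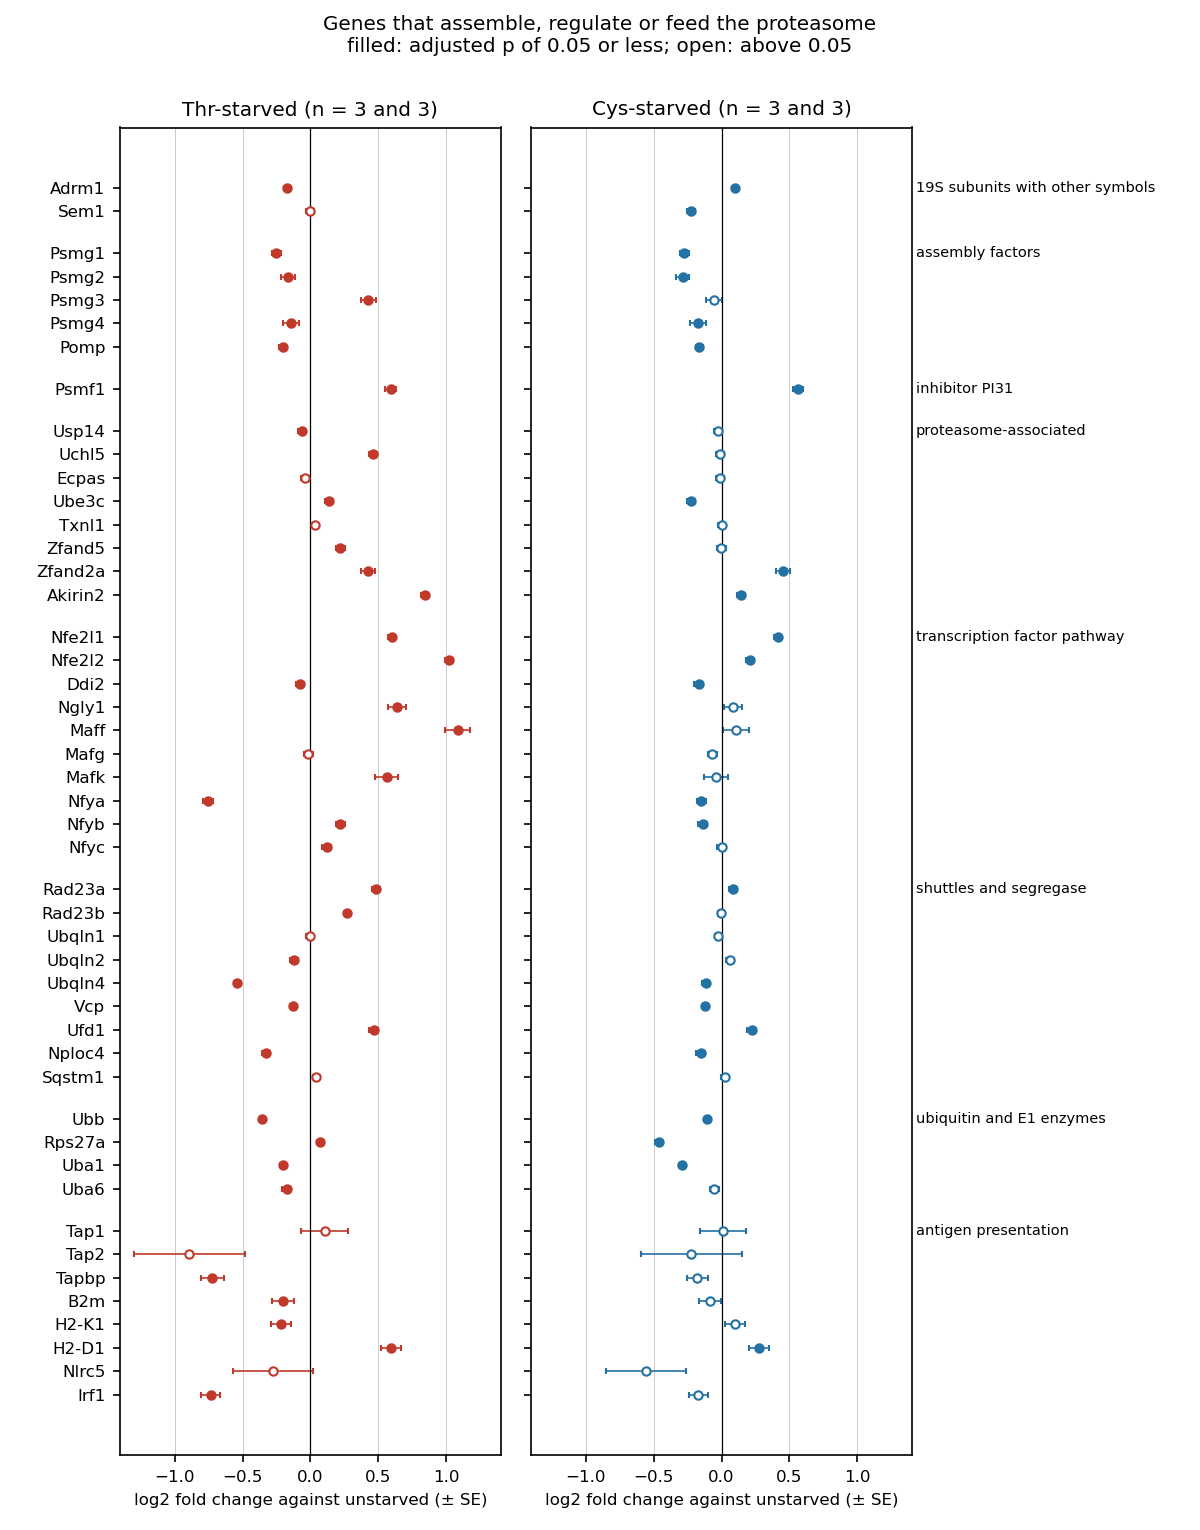
Log2 fold change of the 47 related genes in Thr-starved (left) and Cys-starved cells (right) against unstarved cells, with the standard error as a bar and 3 libraries in each group. Maff, Nfe2l2 and Akirin2 are farthest to the right with Thr starvation, at 1.09, 1.02 and 0.84, and Psmf1 stands at 0.59 and 0.56.

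The counts of some members could hold reads of other genes. A near-identical copy with at least 95% identity over at least 500 bases was found for 8 of the 42, namely Psma3, Psma4, Psma5, Psmb5, Psmc1, Psmd2, Psme2 and Psme2b. Exon bases were shared with a gene on the opposite strand for 10, among them Psmb7 (405 bases, Nek6), Psmd13 (342, Sirt3), Psmd1 (252, Htr2b) and Psmc3 (215, Slc39a13), and with a gene on the same strand for 3. The library kit kept the strand, and the strand setting of the counting is not given in the sources used here.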

How the data were processed

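RNA of 9 libraries, 3 per group, was sequenced as paired ends from poly(A)-selected RNA. Per the study's methods the reads were aligned with STAR 2.7.4a to GRCm38, and the authors deposited raw counts per gene made with HTSeq. The methods state a removal of genes with less than 1 read, but 46 rows of the table summed to 0. The second table, of signal values, holds the counts that the authors divided by DESeq2 size factors, and here only those factors were used. The strand setting of the counting is not given in the sources used here. Of the counts from 1 to 20, 67.8% were even. What a count of 1 stands for, a read or a pair, was not tested, so count minimums need not be in read pairs.

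Counts were tested with edgeR 4.0.16 in R 4.3.3 by the quasi-likelihood F test with TMM scaling, in 1 fit of all 9 libraries over the 20143 genes with a summed count of at least 1, with two-sided p-values adjusted by Benjamini-Hochberg over those genes and a threshold of 0.05. The script was tested on simulated data. Intervals are at 95%. The alternatives were RLE and deposited size factors, DESeq2 1.42.0, filterByExpr or at least 10 counts in every library, only the groups compared, a replicate block, loess offsets (span 0.3) for GC content and exon length, block and offsets together, and each library left out, 18 settings in all. The length of merged exons for levels per kb was added after seeing the data.

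Gene models were from GENCODE M21 on GRCm38, copies from BLAST 2.17.0 (at least 95% identity over at least 500 bases) and exon overlaps from bedtools 2.31.1. Promoter windows were RefSeq's on GRCm38.p6. The members and all lists were chosen with earlier results of these data known, and some related genes are not reported here. Values per library were given for catalytic and immunoproteasome subunits, all activators, and for the 4 strongest increases and 4 strongest decreases among members that passed in each comparison with groups fully apart, and otherwise by counts and examples.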

Additional observations from a re-analysis of the deposited data

Results flagged for a closer look

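For 7 members and 4 related genes the change passed the test in both starvations with opposite signs and the direct comparison of Thr- with Cys-starved cells passed too (edgeR's quasi-likelihood test). The members were 16.7%, beside 10.9% of the genes with a summed count of at least 1000. The direct comparison was part of what was counted here, so its passing is not separate support. Both starvation changes were taken against the same 3 unstarved libraries. Among the members these were Psmd14 (0.4454 on the log2 scale in the direct comparison), Psmd5 (0.4064), Psmb6 (0.3865), Psmd6 (0.3737), Psmb5 (0.2665), Psmd13 (0.2484) and Psme4 (0.247), 7 genes that were all higher with Thr starvation. The opposite signs of Psmb6, Psmd6 and Psmd13 held in all 18 alternative settings. With GC content and exon length offsets the Thr values of Psmd14 (-0.0041) and Psme4 (-0.0734) turned below 0 and that of Psmd5 (0.0041) did not pass. The Thr value of Psmb5 was 0.0474 without Thr-starved library 3 and that of Psme4 0.0437 without Thr-starved library 2, neither of which passed.

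Among the related genes Rps27a, which encodes a ubiquitin fused to a ribosomal protein, had 0.5371 in the direct comparison, the ubiquitin ligase Ube3c 0.3652 and the NF-Y subunit Nfyb 0.36, and the 19S ubiquitin receptor Adrm1 was lower with Thr starvation at -0.2691. The Thr values of Adrm1 (-0.0124) and Nfyb (0.0452) did not pass with the offsets, nor the Cys value of Adrm1 with the deposited size factors (0.0565). The Thr value of Rps27a (0.073) was -0.1283 with the offsets and did not pass without unstarved library 3 (0.057) or Thr-starved library 3 (0.051).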

How the results depend on the processing

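Of the calls among the members, 23 of 35 in Thr starvation, 25 of 31 in Cys starvation and 21 of 30 in the direct comparison held in all 18 alternative settings. The counts of members higher and lower ranged from 11 to 14 and from 17 to 21 (Thr), from 5 to 6 and from 22 to 25 (Cys) and from 17 to 18 and from 11 to 12 (direct) when single libraries were left out. The replicate numbers did not pair the libraries (correlations of deviations from -0.244 to 0.106), and with a replicate block the counts were 14 and 19, 6 and 25, and 18 and 12, with Psma4 and Psmb4 not passing in Thr starvation. With RLE scaling, filterByExpr or DESeq2 18 members were lower in Thr starvation. With the deposited size factors the Cys median was -0.1436, with 4 members higher and 29 lower, and the direct median 0.077, with 22 and 9. The genes with a summed count of at least 1000 moved alike, to medians of -0.0523 (Cys) and 0.0658 (direct). The members' median minus theirs was -0.0913 (Cys) and 0.0112 (direct), against -0.0914 and 0.0113 with TMM. Shares of all genes that passed with these factors are not given here.

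With GC content and exon length offsets, and with the replicate block together with them, the Thr median was -0.0754 and -0.0752, the direct median -0.0406 and -0.0405, its difference from genes with a summed count of at least 1000 was -0.0372 and -0.0358, and 19 members were lower in the direct comparison in both. That difference ranged from -0.0007 to 0.0271 with single libraries left out. In the same pair of settings the Thr values that turned sign and passed in at least 1 of the fits were Psmd11 -0.1609 and -0.1605, Psmd14 -0.0041 and -0.0044, Psma7 0.1036 and 0.103, Psma1 -0.16 and -0.1604, Psma8 -0.0561 and -0.0568, Psme4 -0.0734 in both, Psmg4 0.0056 and 0.002, Txnl1 -0.2162 and -0.217, Zfand5 -0.0271 and -0.0265, Mafg 0.1246 and 0.1248 and Rps27a -0.1283 and -0.1285. In Cys starvation Txnl1 turned in the same sense (-0.0744 and -0.0742). In the direct comparison Psmd11 (-0.04 and -0.0399), Psma6 (-0.0287 and -0.028), Psmb7 (-0.1835 in both), Psmd10 (-0.1817 and -0.182), Psma4 (-0.052 in both), Psma3 (-0.1271 and -0.1278) and Txnl1 (-0.1418 and -0.1428) did. Values that passed in neither fit are not listed. The cause was not tested.

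With 3 libraries a group the smallest change that held in all settings was 0.088 on the log2 scale in Thr and 0.0954 in Cys starvation, and smaller values are uncertain. Some larger ones lost their call too with the GC content and length offsets, such as Psmd10 (0.2745), Psmd14 (0.1927) and Psma8 (0.1636) in Thr starvation.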
